A study of Rattus norvegicus with 141 samples.

Results

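Nfe2l2, the gene of the transcription factor NRF2, and 8 of its target genes were followed across 3 rat tissues exposed to microplastics. The members were the rows of the deposited gene tables that carry the symbols Nfe2l2 (ENSRNOG00000001548), Gclc (ENSRNOG00000006302), Gclm (ENSRNOG00000013409), Slc7a11 (ENSRNOG00000010210), Txnrd1 (ENSRNOG00000009088), Srxn1 (ENSRNOG00000031167), Nqo1 (ENSRNOG00000012772), Hmox1 (ENSRNOG00000014117) and Osgin1 (ENSRNOG00000014948), which are 9 of the 30562 genes in each table. All 9 passed the filter on low counts in stomach and duodenum, and 8 of 9 passed it in liver, where Slc7a11 did not. Adult wild-type Sprague-Dawley rats, an outbred laboratory stock, were kept on standard chow and given vehicle, 5 mg/kg or 50 mg/kg of microplastics; neither the polymer nor the route is named in the sources used here. Polyadenylated RNA was sequenced from liver, stomach and duodenum of females and males in 46 liver, 48 stomach and 47 duodenum libraries. Several frozen pieces of an organ were pulverised together before extraction, the mass taken varied, and the homogenizer was rinsed with water between samples of a treatment and brushed clean between treatments. The labels name 3 batches, of which the third held 0 to 2 libraries of a group. Each combination of tissue, sex and dose held 8 libraries, except that the liver of females at 50 mg/kg held 6 and the duodenum of vehicle females held 7. The labels do not say that each library came from a separate animal, so p-values measure the spread between these libraries, which may be technical in part.

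NRF2 is held at low levels by KEAP1, which brings it to a CUL3 ubiquitin ligase for breakdown. Oxidants and electrophiles modify cysteines of KEAP1, and NRF2 then accumulates, pairs with a small Maf protein and binds antioxidant response elements near its targets. Because this control acts mainly on the protein, the level of Nfe2l2 mRNA is not a direct reading of NRF2 activity, and the mRNA of its targets is commonly used for that. Gclc and Gclm encode the catalytic and the modifier subunit of glutamate-cysteine ligase, the rate-limiting enzyme of glutathione synthesis, and Slc7a11 encodes the cystine importer xCT that supplies it with cysteine. Txnrd1 encodes cytosolic thioredoxin reductase and Srxn1 encodes sulfiredoxin, which restores over-oxidised peroxiredoxins. Nqo1 encodes a quinone reductase, Hmox1 encodes the inducible heme oxygenase, and Osgin1 encodes an oxidative stress-induced growth inhibitor. In liver these genes are known for their part in detoxification, and in stomach and duodenum for protection of the lining of the gut.

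The core letters of the antioxidant response element, TGACNNNGC, were searched on both strands of RefSeq promoter windows of 300 bases, from 250 before to 50 after the annotated start, in the GRCr8 assembly. Windows were matched for 8 of the 9 members, 9 windows in all because Txnrd1 had a pair; Hmox1 was not matched. The motif occurred in 3 of the 9 windows, 1 each of Gclm, Txnrd1 and Nfe2l2, against 4038 of 33469 promoters in the whole table (12.1%). No other motif was searched. The 3 windows are shown first because they hold the motif, printed 5′ to 3′ along the gene's strand with the motif in capitals. The Gclm window lies at chr2:213031885-213032184 on the plus strand, and its motif starts 172 bases before the annotated start, written as GCTTAGTCA, the reverse strand of TGACTAAGC. The Txnrd1 window lies at chr7:22755855-22756154 on the minus strand, and its motif starts 78 bases before the start, written as GCTTTGTCA, the reverse strand of TGACAAAGC. The Nfe2l2 window lies at chr3:81028950-81029249 on the minus strand, and its motif TGACGCCGC starts 38 bases after the start. The windows of Osgin1 (chr19:64393651-64393950, plus strand) and Slc7a11 (chr2:136668215-136668514, minus strand) follow because these were the 2 members called lower in the exposed duodenum; these windows held no match, which says only that the letters are not in these windows.
Gclm: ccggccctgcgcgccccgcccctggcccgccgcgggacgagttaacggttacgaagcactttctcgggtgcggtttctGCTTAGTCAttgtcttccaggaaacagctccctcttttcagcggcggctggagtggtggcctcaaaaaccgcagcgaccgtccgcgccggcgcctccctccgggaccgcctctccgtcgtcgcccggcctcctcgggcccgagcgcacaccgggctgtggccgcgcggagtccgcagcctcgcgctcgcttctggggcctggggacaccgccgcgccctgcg
Txnrd1: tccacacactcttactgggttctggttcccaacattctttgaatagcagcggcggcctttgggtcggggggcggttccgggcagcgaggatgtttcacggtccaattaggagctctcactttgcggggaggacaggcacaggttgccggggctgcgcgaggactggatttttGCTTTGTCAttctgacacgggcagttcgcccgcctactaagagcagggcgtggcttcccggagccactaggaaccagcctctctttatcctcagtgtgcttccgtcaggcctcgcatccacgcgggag
Nfe2l2: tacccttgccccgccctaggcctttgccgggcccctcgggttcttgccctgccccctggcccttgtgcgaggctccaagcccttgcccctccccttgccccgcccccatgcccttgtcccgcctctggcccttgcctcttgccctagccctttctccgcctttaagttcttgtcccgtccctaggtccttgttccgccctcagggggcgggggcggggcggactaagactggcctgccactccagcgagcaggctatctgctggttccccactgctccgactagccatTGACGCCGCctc
Osgin1: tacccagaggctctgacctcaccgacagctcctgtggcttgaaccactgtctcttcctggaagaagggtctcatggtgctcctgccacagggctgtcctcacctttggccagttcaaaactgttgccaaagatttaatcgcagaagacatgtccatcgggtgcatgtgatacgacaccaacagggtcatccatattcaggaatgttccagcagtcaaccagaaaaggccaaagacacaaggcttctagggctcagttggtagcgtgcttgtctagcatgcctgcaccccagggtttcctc
Slc7a11: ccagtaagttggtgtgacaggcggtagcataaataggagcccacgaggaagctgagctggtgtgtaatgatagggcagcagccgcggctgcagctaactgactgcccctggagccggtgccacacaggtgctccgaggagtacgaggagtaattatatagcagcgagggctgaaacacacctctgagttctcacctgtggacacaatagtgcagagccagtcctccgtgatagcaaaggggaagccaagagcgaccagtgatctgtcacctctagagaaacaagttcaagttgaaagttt

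Library totals in the gene tables were 5470040 to 25503800 counts in duodenum, 4947830 to 23940200 in stomach and 6153370 to 23717000 in liver. Tissue markers matched the labels in the vehicle libraries. Alpi, the intestinal alkaline phosphatase, averaged 953 CPM (counts per 1000000 counts of a library) in duodenum and 0.151 CPM or less elsewhere; Atp4a, the gastric proton pump, averaged 5980 CPM in stomach and 0.640 CPM or less elsewhere; Alb, albumin, averaged 92674 CPM in liver and 10.6 CPM or less elsewhere. All values come from bulk tissue, in which fewer cells of a type and less RNA per cell cannot be told apart.

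Without exposure, the members differed by tissue, most of all Osgin1 and Slc7a11, which ran in opposite directions. Osgin1 averaged 14.2 ± 3.94 CPM in vehicle duodenum, 23.7 ± 6.58 CPM in vehicle stomach and 210.3 ± 69.0 CPM in vehicle liver (SD, n = 15, 16 and 16). The lowest liver library, at 138.5 CPM, stood above the highest stomach library, at 33.9 CPM, and above the highest duodenum library, at 24.1 CPM. Slc7a11 averaged 1.29 ± 0.729 CPM in duodenum and 4.32 ± 0.907 CPM in stomach. In vehicle liver it had 4 counts in total, with 12 of 16 libraries at 0, so that no vehicle library of any tissue overlapped with those of another.

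The transcription factor gene Nfe2l2 averaged 315 ± 45.3 CPM in duodenum, 254 ± 31.3 CPM in stomach and 116 ± 21.6 CPM in liver. Txnrd1 averaged 248 ± 49.1 CPM in duodenum, 119.9 ± 21.1 CPM in stomach and 66.7 ± 8.28 CPM in liver. For both genes, on this scale, every duodenum and stomach library lay above every liver library, and for Txnrd1 14 of 15 duodenum libraries also lay above every stomach library. Nqo1 averaged 50.8 ± 12.2 CPM in duodenum, 141.3 ± 37.5 CPM in stomach and 44.2 ± 14.6 CPM in liver. Its stomach libraries lay above all those of the other two tissues, whose ranges overlapped.

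Srxn1 averaged 2.44 ± 1.71 CPM in duodenum, 2.35 ± 0.994 CPM in stomach and 0.741 ± 0.421 CPM in liver. The glutathione genes and Hmox1 were close to level across tissues on this scale. Gclc averaged 77.1 ± 14.6 CPM in duodenum, 63.2 ± 11.9 CPM in stomach and 64.9 ± 9.13 CPM in liver, and Gclm averaged 42.5 ± 11.3, 39.5 ± 7.23 and 40.4 ± 16.9 CPM in the same order. Hmox1 averaged 24.4 ± 9.28 CPM in duodenum, 29.8 ± 12.9 CPM in stomach and 25.7 ± 7.56 CPM in liver, with overlapping ranges.

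Differences between tissues were tested on vehicle libraries after TMM scaling, which aligns libraries on genes of moderate change, and depend on that choice. For the same gene, plain CPM gave a stomach over liver ratio higher by 1.08 on the log2 scale than TMM, and a duodenum over liver ratio higher by 1.04, while duodenum over stomach differed by -0.04; under TMM the median of all genes was 0.08, 0.13 and 0.01. In edgeR's quasi-likelihood test, 9 of 9 members differed between duodenum and liver, 8 of 9 between stomach and liver, and 6 of 9 between duodenum and stomach, at an adjusted p under 0.05. Of all genes tested, 82%, 82.8% and 76.9% passed in these comparisons, so a call between tissues does not set the members apart. Slc7a11, too low to pass the filter in liver alone, passed the joint filter only through its counts in the other tissues. Its calls against liver were thus fixed in advance and count as description only.

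Osgin1 was lower in duodenum than in liver by a log2 difference of -4.99 ± 0.14 (SE), and in stomach than in liver by -4.19 ± 0.13. Slc7a11 was higher in duodenum than in liver by 4.54 ± 0.38 and in stomach than in liver by 6.29 ± 0.34, sizes that depend on the prior count given to libraries at 0, and its duodenum minus stomach difference was -1.75 ± 0.19. Txnrd1 was higher in duodenum than in stomach (1.04 ± 0.10) and Nqo1 lower (-1.50 ± 0.13), directions that both scalings gave. Under TMM, Gclc (-0.83 ± 0.08) and Gclm (-0.90 ± 0.13) were lower in duodenum than in liver, whereas plain CPM put their means slightly higher in duodenum. Nqo1 likewise was lower in duodenum than in liver under TMM (-0.88 ± 0.13) and higher by its plain mean. Between stomach and liver, Hmox1 (-0.80 ± 0.19) and Txnrd1 (-0.22 ± 0.09, adjusted p = 0.0337) were lower in stomach under TMM but higher by their plain means, and the call of Txnrd1 was lost with DESeq2 (-0.13). Plain CPM placed 5 members highest in duodenum, 3 in stomach and 1 in liver; TMM placed 3, 2 and 4, since Hmox1, Gclc and Gclm moved to liver. Under TMM, neighbours that did not differ were Nfe2l2 in stomach and liver (adjusted p = 0.576) and Hmox1 (0.0986), Gclm (0.450) and Srxn1 (0.615) in duodenum and stomach.

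**Figure D1:**
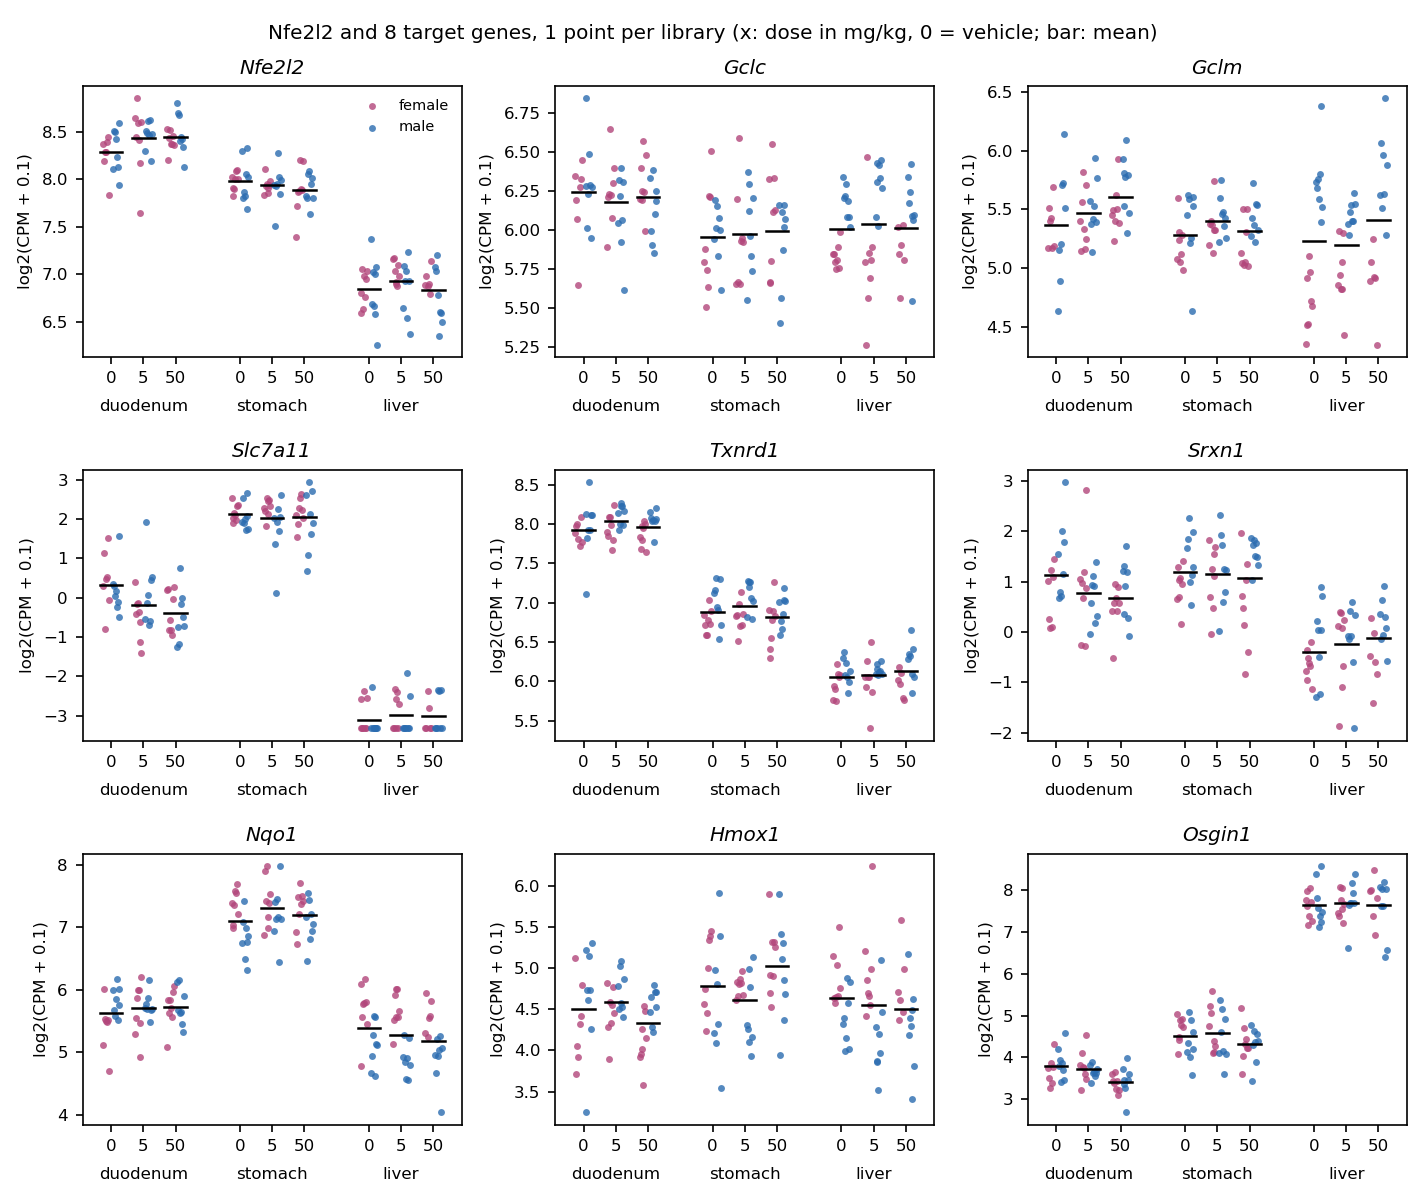
Level of each of the 9 genes in every library, as log2(CPM + 0.1), by tissue (duodenum, stomach, liver) and dose (0, 5 and 50 mg/kg; 0 is vehicle); each point is 1 library, coloured by sex, and the bar is the mean of the dose group. Osgin1 stands highest in liver and Slc7a11 is at or near its floor there, while doses within a tissue overlap in every panel.

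In liver, exposure moved none of the 8 members tested past the threshold. At 50 mg/kg against vehicle, 0 of 8 were called by edgeR (background 0% of 13130 genes), 0 reached an unadjusted p under 0.05, and DESeq2 and limma voom called 0; the same held at 5 mg/kg against vehicle (background 0%). Nfe2l2 averaged 116 ± 21.6, 123 ± 18.7 and 116 ± 19.5 CPM at vehicle, 5 and 50 mg/kg (SD, n = 16, 16 and 14), a log2 difference of 0.01 ± 0.08 (SE) at 50 mg/kg. Nqo1 averaged 44.2 ± 14.6, 40.9 ± 13.9 and 38.1 ± 11.9 CPM, a difference of -0.19 ± 0.12 at 50 mg/kg, the widest below 0 among the members. Hmox1 averaged 25.7 ± 7.56, 26.1 ± 15.1 and 24.2 ± 9.35 CPM, a difference of -0.12 ± 0.16. The dose groups overlapped over most of their range for each of these genes.

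The glutathione synthesis genes of exposed liver at 50 mg/kg lay within 1 SE of vehicle. Gclc averaged 64.9 ± 9.13, 67.7 ± 16.04 and 65.4 ± 11.4 CPM at vehicle, 5 and 50 mg/kg, a difference of -0.02 ± 0.07 at 50 mg/kg. Gclm averaged 40.4 ± 16.9, 37.6 ± 8.19 and 45.6 ± 18.1 CPM, a difference of 0.09 ± 0.10. Of the thiol repair genes, Txnrd1 averaged 66.7 ± 8.28, 68.4 ± 10.1 and 71.1 ± 13.0 CPM, a difference of 0.05 ± 0.07, and Srxn1 averaged 0.741 ± 0.421, 0.847 ± 0.388 and 0.905 ± 0.408 CPM, a difference of 0.20 ± 0.23 that rests on 146, 158 and 172 counts over all libraries of each dose. Osgin1 averaged 210.3 ± 69.0, 213 ± 57.3 and 217 ± 78.6 CPM, a difference well inside its SE of 0.13. Slc7a11 had 4, 7 and 7 counts in total and was at 0 in 12 of 16, 10 of 16 and 9 of 14 libraries, a depth at which no difference was detectable.

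Within a sex, 0 of 8 liver members were called at either dose by edgeR, DESeq2 or limma voom (backgrounds 0%), and Gclm at 5 mg/kg in males was the 1 with an unadjusted p under 0.05. In males it averaged 54.1 ± 12.6, 44.0 ± 3.51 and 57.2 ± 15.2 CPM at vehicle, 5 and 50 mg/kg (n = 8 each), and in females 26.6 ± 4.80, 31.1 ± 6.10 and 30.2 ± 5.79 CPM (n = 8, 8 and 6). At 5 mg/kg the log2 difference from vehicle was -0.36 ± 0.14 in males (adjusted p = 0.127) and 0.22 ± 0.14 in females (adjusted p = 0.607). The difference between those effects, female minus male, was 0.58 ± 0.20 with an adjusted p of 0.0564 in edgeR, where 0 of 8 members were called against a background of 7.84% and 1 reached an unadjusted p under 0.05. DESeq2 and limma voom each called it, as did edgeR with only the groups compared or without batch 3. The ribosomal protein share moved the same ways, at 1.56 ± 0.610% and 1.08 ± 0.250% of counts in males at vehicle and 5 mg/kg, and 1.39 ± 0.306% and 1.85 ± 0.680% in females. With that share as a covariate the Gclm difference was 0.24, and with 3 surrogate variables 0.15, neither called. In male vehicle replicate 7, which had the highest Gclm level of its group (83.2 CPM), the share was also the highest of the group, at 2.55%. That is 1 library, and the part of the share in the Gclm difference was not tested. Within batch 1 alone the difference was 0.32 (adjusted p = 1) and within batch 2 alone 0.96 (adjusted p = 0.0503). The same difference at 50 mg/kg was 0.08 ± 0.21 for Gclm, and 0 of 8 members were called by each of the 3 tools (background 0%), with 0 at an unadjusted p under 0.05.

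In stomach, no member passed the threshold by dose either. At 50 mg/kg against vehicle, edgeR called 0 of 9 (background 4.49%), 1 had an unadjusted p under 0.05, and DESeq2 and limma voom called 0. That 1 was Osgin1, which averaged 23.7 ± 6.58, 26.0 ± 10.6 and 20.7 ± 6.19 CPM at vehicle, 5 and 50 mg/kg (SD, n = 16 each), a log2 difference of -0.26 ± 0.13 at 50 mg/kg (adjusted p = 0.193). Hmox1 averaged 29.8 ± 12.9, 25.1 ± 5.81 and 34.5 ± 12.5 CPM, which gave differences of -0.31 ± 0.18 at 5 mg/kg and 0.18 ± 0.17 at 50 mg/kg. Between the doses, 50 against 5 mg/kg, Hmox1 differed by 0.48 ± 0.17 (adjusted p = 0.146), and edgeR called 0 of 9 members there (background 0.707%), with 2 at an unadjusted p under 0.05 and 0 by the other tools. At 5 mg/kg against vehicle 0 of 9 were called (background 0%), 0 reached an unadjusted p under 0.05, and 0 were called by the other tools.

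With both sexes together, the other stomach members stayed within a log2 difference of 0.18 in either direction at both doses. Nfe2l2 averaged 254 ± 31.3, 246 ± 26.3 and 239 ± 32.9 CPM at vehicle, 5 and 50 mg/kg, and Nqo1 averaged 141.3 ± 37.5, 165 ± 48.4 and 149.7 ± 33.7 CPM. Gclc averaged 63.2 ± 11.9, 64.3 ± 13.8 and 65.2 ± 13.8 CPM, Gclm 39.5 ± 7.23, 42.4 ± 5.48 and 40.1 ± 6.13 CPM, and Txnrd1 119.9 ± 21.1, 126 ± 19.96 and 114 ± 20.8 CPM. Slc7a11, best detected in this tissue, averaged 4.32 ± 0.907, 4.20 ± 1.29 and 4.38 ± 1.66 CPM from 643, 664 and 750 counts, and its difference at 50 mg/kg was 0.04 ± 0.16. Srxn1 averaged 2.35 ± 0.994, 2.36 ± 1.12 and 2.29 ± 1.07 CPM. In females alone 0 of 9 were called at 50 mg/kg by the 3 tools (background 0%), with 1 at an unadjusted p under 0.05, Osgin1 (-0.41 ± 0.18, adjusted p = 0.848). In males alone, where 7.06% of genes were called at 50 mg/kg, 0 of 9 members were called by edgeR, DESeq2 or limma voom, and 0 had an unadjusted p under 0.05. The ribosomal protein share of male stomach ran from 2.20 to 3.84% of counts with vehicle and from 2.63 to 7.35% at 50 mg/kg. In female stomach it ran from 2.53 to 6.03% with vehicle and from 2.76 to 5.89% at 50 mg/kg. Its part in the stomach values was not tested. At 5 mg/kg, 0 of 9 members were called within either sex by the 3 tools (background 0% in both). The 1 with an unadjusted p under 0.05 there was Nqo1 in males, at 0.38 ± 0.17 (edgeR adjusted p = 0.713), beside -0.02 ± 0.17 in females.

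In duodenum, Osgin1 and Slc7a11 fell at 50 mg/kg, the 2 member calls by edgeR in the dose comparisons. The 2 of 9 called were both lower, against 16.3% of all 15189 genes called in this comparison, 8.76% higher and 7.58% lower, so the share of members called in either direction is near the background. Osgin1 averaged 14.2 ± 3.94, 13.4 ± 3.16 and 10.8 ± 2.15 CPM at vehicle, 5 and 50 mg/kg (SD, n = 15, 16 and 16). The lowest, median and highest libraries were at 6.34, 10.7 and 15.9 CPM at 50 mg/kg, against 9.56, 13.5 and 24.1 CPM with vehicle. Of the 16 libraries at 50 mg/kg, 15 lay below the vehicle median and 5 below every vehicle library, and the rest overlapped. The log2 difference was -0.41 ± 0.11 (SE; 0.754-fold, adjusted p = 0.0138).

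Slc7a11 averaged 1.29 ± 0.729, 0.938 ± 0.789 and 0.722 ± 0.349 CPM at vehicle, 5 and 50 mg/kg, from 204, 166 and 134 counts over all libraries of each dose. Its lowest, median and highest libraries were at 0.319, 0.593 and 1.58 CPM at 50 mg/kg, against 0.478, 1.13 and 2.87 CPM with vehicle. Again 15 of 16 libraries at 50 mg/kg lay below the vehicle median and 5 below every vehicle library. The log2 difference was -0.83 ± 0.27 (0.561-fold, adjusted p = 0.0289).

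Neither gene was called at 5 mg/kg, where edgeR called 0 of 9 members (background 0%), 1 had an unadjusted p under 0.05 and the other tools called 0. Osgin1 differed from vehicle there by -0.10 ± 0.11 and Slc7a11 by -0.54 ± 0.27 (adjusted p = 0.667 and 0.349). By sex, Slc7a11 at 5 mg/kg differed by -1.14 ± 0.39 in females (adjusted p = 0.693) and 0.05 ± 0.36 in males (adjusted p = 0.967), and the difference between these effects was -1.19 ± 0.53 (adjusted p = 1.00); edgeR, DESeq2 and limma voom called 0 of 9 members in that difference (background 0%), and Slc7a11 and Srxn1 were the 2 with an unadjusted p under 0.05. Between the doses, 50 against 5 mg/kg, the differences were -0.31 ± 0.11 and -0.29 ± 0.27 (adjusted p = 0.332 for Osgin1), with 0 of 9 members called by any of the 3 tools (background 0%) and 1 at an unadjusted p under 0.05. By sex, Osgin1 differed at 50 mg/kg by -0.40 ± 0.16 in females and -0.42 ± 0.15 in males, and Slc7a11 by -0.90 ± 0.38 in females and -0.76 ± 0.37 in males. No member was called within a sex at 50 mg/kg by the 3 tools (background 0% in both), with 2 at an unadjusted p under 0.05 in each sex, and the difference between the sexes' effects called 0 of 9 by the 3 tools (background 0%) with 0 at an unadjusted p under 0.05.

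The calls of both genes depend on the processing and on few libraries. The share of all genes called under each alternative is not given here, so these losses need not be particular to the genes. Within batch 1 alone the differences were -0.21 for Osgin1 and -0.53 for Slc7a11 (adjusted p = 0.851 for both), and within batch 2 alone -0.42 and -1.19 (adjusted p = 0.0518 and 0.0678). Osgin1 lost its call with limma voom (-0.25) and without batch 3 (-0.31). DESeq2 called Osgin1 and gave no adjusted p for Slc7a11, and Slc7a11 lost its call without the vehicle library female replicate 6 (-0.72) or male replicate 7 (-0.68).

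Another measure moved with the dose, in duodenum as in male stomach. Ribosomal protein genes took 3.87 ± 0.676%, 4.46 ± 0.821% and 5.55 ± 1.54% of counts at vehicle, 5 and 50 mg/kg in duodenum, over 2.66 to 5.12% with vehicle and 2.93 to 9.61% at 50 mg/kg. With that share as a covariate, the difference of Osgin1 was -0.17 and that of Slc7a11 -0.85, and neither was called; with 3 surrogate variables the differences were -0.11 and -0.91, and neither was called. The summed level of 7 enterocyte markers was 4311 ± 1847 CPM at 50 mg/kg (1689 to 8345) and 6850 ± 4416 CPM with vehicle (2229 to 13886), no marker was at 0 throughout a group, and 7 of 7 had a negative difference, of which 0 were called and 4 had an unadjusted p under 0.05. Their part in the result was not tested.

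**Figure D2:**
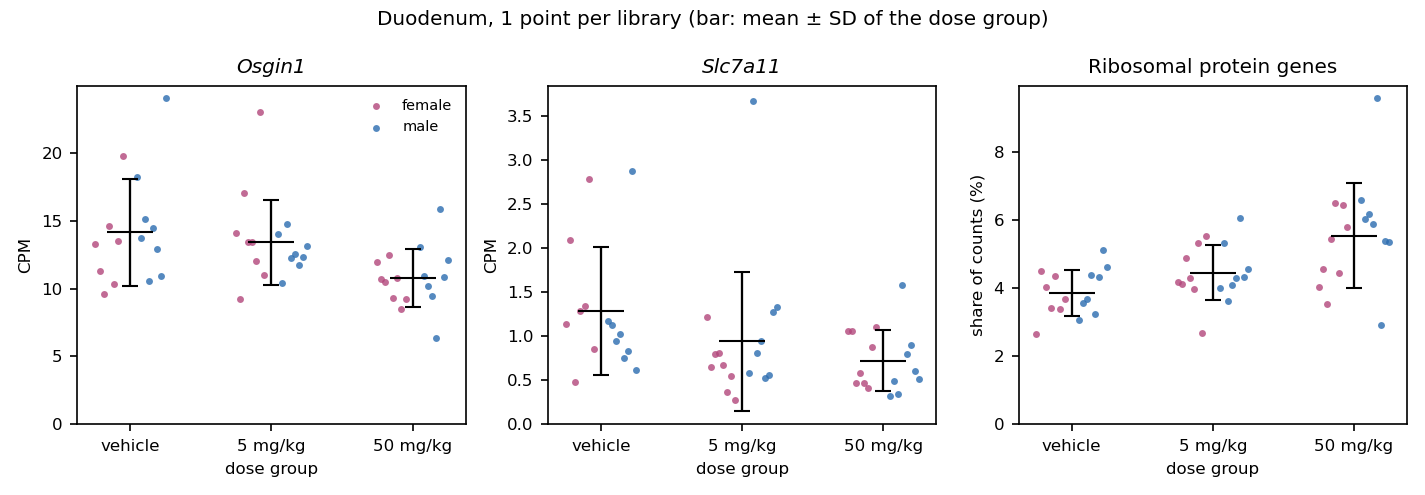
Osgin1 and Slc7a11 in CPM and the share of counts from ribosomal protein genes in percent in each duodenum library, by dose group; points are libraries coloured by sex and the bars are the mean and SD over both sexes. At 50 mg/kg 15 of 16 libraries lie below the vehicle median for each gene, and the ribosomal protein share reaches 9.61%, against at most 5.12% with vehicle.

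The remaining duodenum members were not called. Srxn1 averaged 2.44 ± 1.71, 1.90 ± 1.45 and 1.61 ± 0.646 CPM at vehicle, 5 and 50 mg/kg, a difference of -0.48 ± 0.25 at 50 mg/kg (adjusted p = 0.171). In males at 5 mg/kg it differed by -1.06 ± 0.33 (adjusted p = 0.409) and in females by 0.21 ± 0.36. Hmox1 averaged 24.4 ± 9.28, 24.5 ± 4.93 and 20.5 ± 4.59 CPM, a difference of -0.28 ± 0.15 (adjusted p = 0.186). Nfe2l2 averaged 315 ± 45.3, 353 ± 59.5 and 352 ± 43.1 CPM, a difference of 0.13 ± 0.08 (adjusted p = 0.277), and Gclm 42.5 ± 11.3, 44.8 ± 7.88 and 49.3 ± 8.82 CPM, a difference of 0.15 ± 0.12. Gclc, Txnrd1 and Nqo1 differed by -0.08, -0.04 and 0.07 at 50 mg/kg.

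Whether the effect of 50 mg/kg differed between tissues was tested in 1 joint fit. That fit treated all libraries as separate, though library names carry the same numbers for a group in each tissue, and tissues may share animals. Osgin1's effect in duodenum minus that in stomach was -0.14 ± 0.18 (adjusted p = 0.805), and minus that in liver -0.41 ± 0.18 (adjusted p = 0.214). Slc7a11's effect in duodenum minus that in stomach was -0.86 ± 0.29 (adjusted p = 0.160), and minus that in liver -1.14 ± 0.95 (adjusted p = 0.580). The value against liver says little, since Slc7a11 was near its floor there and passed the joint filter only through the other tissues. For duodenum against stomach, duodenum against liver and stomach against liver, 0 of 9 members were called by edgeR, DESeq2 or limma voom, with 1, 2 and 0 at an unadjusted p under 0.05; the backgrounds were 0.33%, 0.0824% and 0%. The lower duodenal levels were thus not shown to be particular to that tissue.

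**Figure D3:**
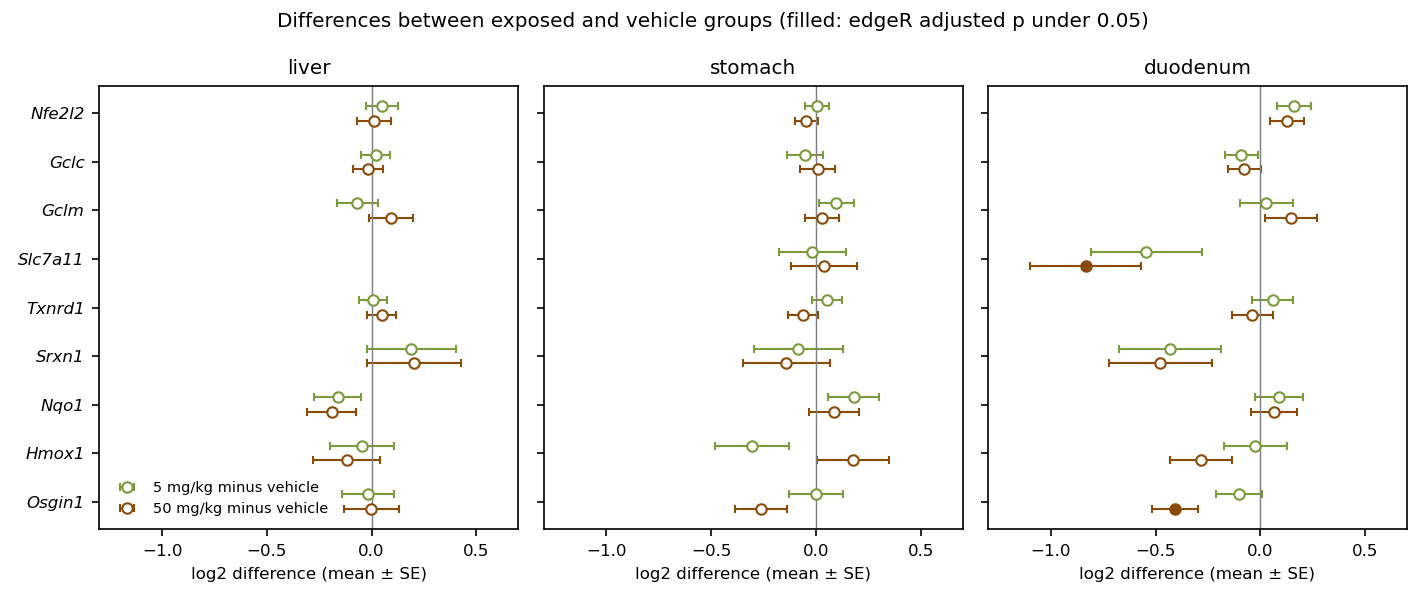
Log2 difference from vehicle with its SE for each gene at 5 mg/kg and 50 mg/kg in liver, stomach and duodenum, both sexes together; a filled point has an edgeR adjusted p under 0.05. Only Osgin1 (-0.41) and Slc7a11 (-0.83) at 50 mg/kg in duodenum are filled, and Slc7a11 was not tested in liver.

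In liver, Gclm and Gclc were lower and Nqo1 higher in females. By dose group 3 or 4 of 8 members were called, against 15.6 to 24.3% of all genes, a gap that was not tested on so few members. In vehicle liver, Gclm had its lowest, median and highest library in females at 20.3, 25.8 and 34.2 CPM, against 41.8, 52.2 and 83.2 CPM in males (n = 8 each). All 8 female libraries lay below every male one, and the log2 difference, female minus male, was -1.10 ± 0.14 (0.465-fold, adjusted p = 8.12e-08). Gclc, the catalytic partner, was at 53.7, 56.7 and 63.5 CPM in females and 64.7, 73.2 and 81.1 CPM in males, again with 8 of 8 females below every male and a difference of -0.43 ± 0.10 (adjusted p = 0.00113). Nqo1 ran the other way, at 27.3, 55.0 and 72.2 CPM in females and 24.4, 34.7 and 47.6 CPM in males, with 5 of 8 females above every male and a difference of 0.49 ± 0.16 (adjusted p = 0.0250). These 3 of 8 members called compare with a background of 22.8% of genes, 10.5% higher and 12.3% lower in females; DESeq2 called 4 and limma voom 5.

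The other liver members had smaller or less certain sex differences in vehicle libraries. Hmox1 averaged 29.9 ± 7.43 CPM in females and 21.5 ± 5.22 CPM in males (SD, n = 8 each), a difference of 0.50 ± 0.22 (adjusted p = 0.0967). Txnrd1 averaged 63.2 ± 7.25 CPM in females and 70.1 ± 8.18 CPM in males, a difference of -0.22 ± 0.10 (adjusted p = 0.0817), and Srxn1 0.549 ± 0.133 CPM in females and 0.933 ± 0.527 CPM in males (adjusted p = 0.155). Osgin1 averaged 200.3 ± 43.7 CPM in females and 220.2 ± 89.8 CPM in males, and Nfe2l2 116 ± 14.5 CPM in females and 117 ± 28.1 CPM in males, with overlapping ranges.

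Exposed livers were tested in the same way, in comparisons added after the vehicle result was seen. At 5 mg/kg, Gclm averaged 31.1 ± 6.10 CPM in females and 44.0 ± 3.51 CPM in males (-0.53 ± 0.14, adjusted p = 0.00625), and Gclc 56.9 ± 14.5 CPM in females and 78.6 ± 8.34 CPM in males (-0.49 ± 0.10, adjusted p = 0.000283). Nqo1 averaged 51.9 ± 10.4 CPM in females and 29.9 ± 5.57 CPM in males (0.77 ± 0.17, adjusted p = 0.000497), and Hmox1 33.6 ± 17.6 CPM in females and 18.7 ± 7.10 CPM in males (0.93 ± 0.22, adjusted p = 0.00199). These were 4 of 8 members, against a background of 24.3%, 12.4% higher and 11.9% lower.

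At 50 mg/kg the same 3 genes were called with the same directions, and Txnrd1 was the fourth. Gclm averaged 30.2 ± 5.79 CPM in 6 females and 57.2 ± 15.2 CPM in 8 males (-1.03 ± 0.15, adjusted p = 1.57e-06), with 6 of 6 females below every male. Gclc averaged 58.5 ± 6.71 CPM in females and 70.6 ± 11.8 CPM in males (-0.33 ± 0.11, adjusted p = 0.0256), Nqo1 48.2 ± 9.33 CPM in females and 30.5 ± 6.97 CPM in males (0.55 ± 0.17, adjusted p = 0.0209), and Txnrd1 62.9 ± 7.26 CPM in females and 77.2 ± 13.2 CPM in males (-0.36 ± 0.10, adjusted p = 0.00948). The 4 members called, 1 higher and 3 lower, stand against a background of 15.6%, 7.65% higher and 7.95% lower. The 3 dose groups hold different libraries, and Gclm and Gclc were lower, and Nqo1 higher, in females in each. These comparisons share 1 fit with its estimate of spread, and the labels do not say that the animals differ. They are therefore not 3 independent repeats.

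**Figure D4:**
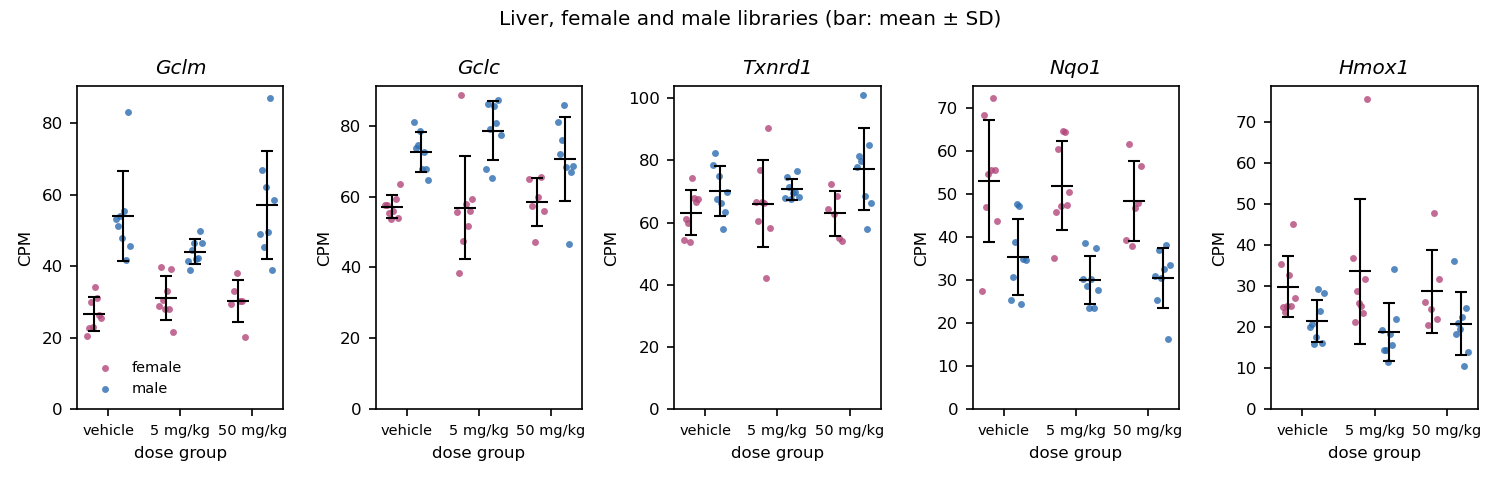
Level in CPM of Gclm, Gclc, Txnrd1, Nqo1 and Hmox1 in each liver library, females left of males within each dose group; the bars are the mean and SD of the group. Gclm in females stays at or below 39.8 CPM at every dose, while all but a few male libraries lie above that level.

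Batch and single libraries moved some of these values. How many of all genes lost their calls in the same fits is not given here. Gclm in vehicle livers differed by -1.07 within batch 1 and -1.22 within batch 2 (adjusted p = 0.000892 and 0.000529). Gclc differed by -0.39 and -0.51 (0.283 and 0.0256), and Nqo1 by 0.90 and 0.22 (0.0654 and 0.454). At 5 mg/kg the batch 1 and batch 2 values were -0.75 and -0.26 for Gclm, -0.25 and -0.58 for Gclc, 1.03 and 0.66 for Nqo1, and 1.55 and 0.53 for Hmox1. In livers at 50 mg/kg, where batch 1 held 1 female library, they were -0.71 and -1.27 for Gclm, -0.31 and -0.32 for Gclc, 0.18 and 0.59 for Nqo1, and -0.32 and -0.37 for Txnrd1. The vehicle call of Nqo1 was lost without female replicate 6 (0.41), male replicate 1 (0.41) or male replicate 2 (0.46), and its call at 50 mg/kg without female replicates 2 (0.49), 4 (0.51) or 6 (0.51) or male replicates 2 (0.49) or 7 (0.46). The call of Gclc at 50 mg/kg was lost without female replicate 3 (-0.29) or male replicate 4 (-0.30). With only the groups compared, or without batch 3, Nqo1 lost its call in vehicle livers (0.48 and 0.44) and Gclc and Nqo1 lost theirs at 50 mg/kg; Txnrd1 lost its call with only the groups compared.

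Cell markers also differed by sex in vehicle liver. Of 10 macrophage markers, 4 were higher in females, namely Cd163, Csf1r, Adgre1 and Cd68, and the list summed to 375 to 853 CPM in females and 284 to 722 CPM in males, with none at 0 in all libraries of a sex. The 6 hepatocyte markers summed to 102655 to 152045 CPM in females and 89936 to 114308 CPM in males, but single markers went both ways: Cyp2e1 was higher in females (0.95) and Ttr (-1.28), Apoa1 (-0.77) and Serpina1 (-0.47) were lower. The 7 pancreatic acinar markers in the table summed to 10.8 to 320 CPM in females and 0.0928 to 1.22 CPM in males, with Ctrb1 at 0 in all female libraries and Ctrb1 and Pnlip at 0 in all male ones; Cpa1, the 1 acinar marker tested, differed by 10.68 on the log2 scale. Their part in the sex differences of the members was not tested.

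Outside liver, sex gave no member call by edgeR. In vehicle libraries 0 of 9 members were called in stomach (background 0.172%) and 0 of 9 in duodenum (background 0.079%), with 3 and 2 at an unadjusted p under 0.05; DESeq2 called 0 in both, and limma voom 1 in stomach and 0 in duodenum. The stomach gene was Nqo1, with a female minus male difference of 0.56 ± 0.17 (edgeR adjusted p = 0.235). In the exposed groups 0 of 9 were called by the 3 tools at either dose, with 1 and 2 at an unadjusted p under 0.05 in stomach and 1 and 1 in duodenum at 5 and 50 mg/kg; the backgrounds were 0.231% and 0.244% in stomach and 0.0988% and 0.079% in duodenum.

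Other genes of the pathway gave few calls by dose, and their counts in duodenum at 50 mg/kg are to be read against the 16.3% of all genes called there, 8.76% higher and 7.58% lower. In duodenum at 50 mg/kg, of 11 regulators of NRF2, 1 was higher and 1 lower. Rbx1, the RING subunit of the CUL3 ligase, rose by 0.37 ± 0.12 on the log2 scale (adjusted p = 0.0315). Mafk, a small Maf partner read from the row with more counts of the 2 that carry the symbol, fell by 0.52 ± 0.12 (adjusted p = 0.0104). Of 27 further NRF2 targets, 2 were higher and 1 lower. The peroxiredoxin gene Prdx1 rose by 0.44 ± 0.14 and the glutathione transferase gene Gstp1 by 0.32 ± 0.11, and Abcc3, an organic anion exporter, fell by 0.33 ± 0.10 (adjusted p = 0.0239, 0.0483 and 0.0258). The median difference was -0.16 for the regulators and 0.00 for the further targets, beside -0.02 over all genes tested. These duodenal values move beside the ribosomal protein share given above.

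A further 3 short lists were read beside them in the same duodenal contrast, against the same background. Of 5 antioxidant enzymes not mainly controlled by NRF2, Gpx1 (glutathione peroxidase, 0.47) and Sod1 (superoxide dismutase, 0.35) rose. Of 10 genes of the ATF4 amino acid response, a pathway that also drives Slc7a11, Psat1 of serine synthesis rose by 0.41 and Sesn2, a sestrin gene, fell by 0.29. Of 5 tested aryl hydrocarbon receptor genes, Cyp1a1, a cytochrome P450 gene, fell by 1.86 ± 0.54 and the receptor repressor gene Ahrr fell by 0.42. At 50 mg/kg in liver and stomach, and at 5 mg/kg in all tissues, edgeR called 0 genes of each of these 5 lists. An unadjusted p under 0.05 was reached in liver by 1 regulator and 1 ATF4 gene at 50 mg/kg and 1 regulator at 5 mg/kg, in stomach at 50 mg/kg by 2 regulators, 4 further targets, 1 ATF4 and 1 aryl hydrocarbon receptor gene and at 5 mg/kg by 0, and in duodenum at 5 mg/kg by 4 regulators, 2 ATF4 and 3 aryl hydrocarbon receptor genes; the other tools were not applied to the lists. In the sex difference of the effect of 5 mg/kg in liver, female minus male, which is outside the rule for named genes, 4 of 26 further targets were higher and 0 lower, namely Blvrb (0.74), Prdx1 (0.75), Gsta4 (0.61) and Txn1 (0.96), as were 2 of 5 antioxidant enzymes, Sod1 (0.75) and Gpx1 (1.097), against the background of 7.84%. The ribosomal protein share moved with that contrast, as given for Gclm, and its part in the result was not tested. The smallest p values in stomach at 50 mg/kg belonged to the small Maf gene Maff (0.32 ± 0.10, adjusted p = 0.0532) among regulators and to thioredoxin, Txn1 (0.43 ± 0.16, adjusted p = 0.106), among further targets.

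In vehicle liver, further targets also differed by sex, against the background of 22.8% called, 10.5% higher and 12.3% lower. Of 26 tested, 5 were higher and 7 lower in females, with a median of -0.03 beside 0.00 over all genes. Akr1b8, an aldo-keto reductase, was higher by 4.47 ± 0.35 and Pgd of the pentose phosphate pathway by 0.84 ± 0.14, while Gstm1, a glutathione transferase, and Akr7a3, an aflatoxin aldehyde reductase, were lower (-1.43 ± 0.13 and -1.05 ± 0.17). Of 11 regulators 3 were higher and 0 lower, namely Nfe2l1 (0.61), the NRF2 relative that controls proteasome genes, Mafk (0.59) and Btrc (0.38). These genes are named by smallest p within their list, a choice made after their values were seen.

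Several members varied together between libraries. Correlations were taken on log2 CPM over all libraries of a tissue, with 100 pairs in all, permutation p-values and Benjamini-Hochberg adjustment, and again after removal of the means of sex, dose and batch. The share called among pairs of all genes was not computed in any tissue, so counts of called pairs do not set the members apart. In duodenum 7 of 36 pairs were called, all positive, and 6 of them in both forms. Gclm and Txnrd1 gave the strongest (r = 0.723, rho = 0.745, both permutation p = 1e-05, the smallest these permutations can give, adjusted p = 0.000500, n = 47). It was 0.701 without the 2 libraries farthest from the median of Gclm, 0.729 and 0.762 within batches 1 and 2, and 0.772 after removal of the means. After that removal, Gclm and Txnrd1 each correlated more strongly with genes outside the members, as given below. Nfe2l2 correlated with Txnrd1 (r = 0.530, rho = 0.518, adjusted permutation p = 0.00333 and 0.00378; 0.527 without 2 libraries, 0.273 and 0.821 within the batches) and with Gclm (r = 0.526, rho = 0.549, adjusted permutation p = 0.00257 and 0.00186; 0.524 without 2 libraries, 0.395 and 0.712 within the batches).

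The remaining duodenal pairs were less even. Hmox1 correlated with Txnrd1 (r = 0.603, rho = 0.463, adjusted permutation p = 0.000667 and 0.00938; 0.492 without 2 libraries, 0.536 and 0.657 within the batches). Srxn1 and Osgin1 gave r = 0.591 and rho = 0.541 (adjusted permutation p = 0.00100 and 0.00186), but 0.381 without 2 libraries and 0.117 within batch 2, against 0.651 within batch 1. Nfe2l2 and Nqo1 gave r = 0.393 and rho = 0.264 (adjusted permutation p = 0.0350 and 0.220), which fell to 0.069 without 2 libraries and so rests on them. Nqo1 and Gclm gave r = 0.377 and rho = 0.429 (adjusted permutation p = 0.0433 and 0.0171; 0.331 without 2 libraries, 0.471 and 0.306 within the batches). Values of a pair come from the same library, so they share its depth and its mix of cells.

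In stomach 8 of 36 pairs were called, 6 positive and 2 negative, and 6 in both forms. Nqo1 and Osgin1 gave the strongest (r = 0.565, rho = 0.435, adjusted permutation p = 0.00100 and 0.0150, n = 48), with 0.488 without 2 libraries, 0.595 and 0.574 within the batches and 0.575 after removal of the means. Txnrd1 and Srxn1 gave r = 0.498 and rho = 0.519 (adjusted permutation p = 0.00333 and 0.00275; 0.449 without 2 libraries, 0.482 and 0.428 within the batches). Gclm and Srxn1 gave r = 0.466 and rho = 0.472 (adjusted permutation p = 0.00625 and 0.00582; 0.492 without 2 libraries, 0.749 and 0.415 within the batches). Both negative pairs held Gclm and were uneven. Hmox1 and Gclm gave r = -0.404 and rho = -0.322 (adjusted permutation p = 0.0287 and 0.106), -0.269 without 2 libraries, 0.013 and -0.526 within the batches and -0.414 after removal of the means. Gclm and Slc7a11 gave r = -0.385 and rho = -0.240 (adjusted permutation p = 0.0350 and 0.238), -0.361 without 2 libraries, and 0.272 and -0.472 within the batches, and were not called after removal of the means. The other called pairs were Hmox1 with Gclc (r = 0.409, rho = 0.436), Gclc with Txnrd1 (r = 0.385, rho = 0.377) and Gclm with Txnrd1 (r = 0.385, rho = 0.383), with adjusted permutation p of 0.0287 to 0.0350 for r and 0.0160 to 0.0404 for rho. Of these, Gclm with Txnrd1 gave 0.708 and 0.266 within the batches and was not called after removal of the means (0.343, adjusted permutation p = 0.0773). Nfe2l2 with Nqo1 was called only after that removal (0.483, adjusted permutation p = 0.00600), against r = 0.170 before it. In liver Gclm and Gclc were lower in females in each dose group, though the ranges of Gclc overlapped over all doses, so no pooled r is given. After removal of the means 1 of 28 pairs was called, Nfe2l2 with Osgin1 (r = 0.57), and Gclc with Gclm gave -0.21.

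**Figure D5:**
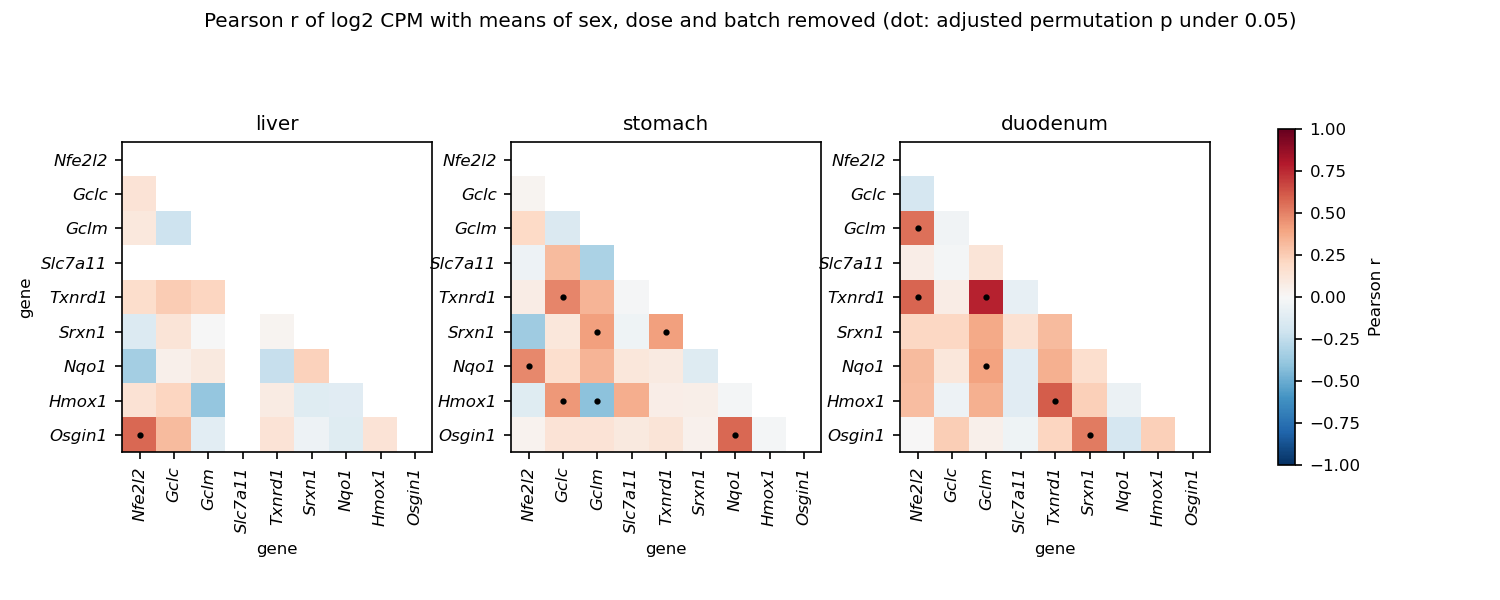
Pearson r of log2 CPM for each pair of the 9 genes in liver, stomach and duodenum after removal of the means of sex, dose and batch; a dot marks an adjusted permutation p under 0.05, and Slc7a11 is blank in liver. Gclm with Txnrd1 in duodenum (0.772) is the darkest cell.

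Among all genes that passed the filter, the genes most like each member were found by the highest r after removal of the same means, as a description. In duodenum, Gclm was most like Mgst2, a microsomal glutathione transferase gene (0.942), and Atp5f1c, an ATP synthase subunit gene (0.929), over 47 libraries. Txnrd1 was most like Gnpda1 (0.884) and Lta4h (0.881), and Osgin1 most like Zbtb7b (0.766) and Cdk18 (0.765). Slc7a11 was most like Fcho1 (0.694) and Ccl19 (0.665). In stomach, over 48 libraries, Nqo1 was most like Mal (0.836) and C3h15orf48 (0.826), and Hmox1 most like Psapl1 (0.823) and Abhd5 (0.802). In liver, over 46 libraries, Gclm was most like Bzw1 (0.814) and Eif4e (0.784), and Txnrd1 most like Ddx21 (0.762) and Nars1 (0.726). The highest r of the members not named here ran from 0.586 to 0.787 in duodenum, 0.669 to 0.775 in stomach and 0.547 to 0.679 in liver.

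Each member with several annotated transcripts was carried mostly by 1 of them in every tissue where it could be read. The leading transcript of Nfe2l2, ENSRNOT00000002114, held a mean of 97.0 to 98.2% of the gene's counts by tissue. That of Nqo1, ENSRNOT00000112166, held 93.1 to 95.0%, that of Gclc, ENSRNOT00000033196, 94.5 to 95.6%, and that of Osgin1, ENSRNOT00000020225, 95.0 to 97.9%. Shares were taken only from libraries with at least 10 counts of the gene, which left for Slc7a11 47 stomach libraries, 20 duodenum libraries and 0 liver libraries. There ENSRNOT00000114420 held 95.0 ± 9.89% in stomach and 99.2 ± 3.60% in duodenum (SD). Hmox1, Gclm and Txnrd1 each had 1 transcript in the tables.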

How the data were processed

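The authors deposited a table of estimated counts per gene and one per transcript for each tissue, in which 9.47 to 11.9% of gene values were fractional. Salmon 1.10.3, STAR 2.7.11b, UMI-tools 1.1.5, the trimmers Trim Galore 0.6.10 and cutadapt 4.9, and the rat build mRatBN7.2 are listed per the submitters' processing notes; no settings, annotation or use of strand is given in the sources used here, so overlapping and antisense genes cannot be told apart. Here counts were rounded, filtered (10 counts in enough libraries, 15 in total), scaled by TMM and tested per tissue with edgeR 4.0.16's quasi-likelihood test (R 4.3.3) on groups of sex and dose plus batch, with Benjamini-Hochberg adjustment over all genes tested and a threshold of 0.05. Tissues were compared in joint fits of all libraries concerned. An SE is the log2 change divided by the square root of its F value. CPM were computed as counts per 1000000 counts of a library's table total, are not per length, and do not compare genes with each other.

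Alternatives were DESeq2 1.42.0, its size factors, limma 3.58.1 voom with quality weights, sva 3.50.0, no filter, no batch term, a replicate block, only the groups compared, no batch 3, the ribosomal protein share (166 genes) as a covariate, and leaving out each library. Single batches, and the sex contrasts within exposed groups, were added after seeing the data. The main test was tried on simulated data. These held no batch or sex differences, and changes were set only in genes with higher counts than Slc7a11 had in duodenum. For correlations, 2 was the prior count of the log2 CPM and 100000 permutations were drawn. Members and lists were chosen with earlier results of these data known. All 9 members are reported, and of each list the called genes, up to 4 by smallest p, or otherwise up to 2. Library totals ran from 4947830 to 25503800 counts. Promoters are RefSeq's, on GRCr8, which is not the build of the files. No libraries had identical values. Python 3.11.15, NumPy 2.4.6, pandas 2.3.3 and matplotlib 3.10.9 were used for tables and figures.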

Additional observations from a re-analysis of the deposited data

Results flagged for a closer look

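In 10 of 156 sets of a gene in a group of one tissue, sex and dose, a single library stood far from the rest by Dixon's 95% limit. Chance alone would flag about 1 of 20 sets by that limit, a rate near this one. In liver, Gclm stood at 83.2 CPM in male vehicle replicate 7, above the 41.8 to 55.5 CPM of the other libraries of its group. Srxn1 stood at 0.165 CPM in male replicate 7 at 5 mg/kg, below the other libraries at 0.559 to 1.42 CPM, and Osgin1 at 98.0 CPM in male replicate 1 at 5 mg/kg, below 199.6 to 336 CPM. In stomach, Nfe2l2 stood at 168 CPM in female replicate 1 at 50 mg/kg, below 211 to 294 CPM, and Gclm at 24.7 CPM in male vehicle replicate 6, below 36.9 to 49.2 CPM.

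In duodenum, the single libraries fell on 4 genes. Slc7a11 stood at 2.87 CPM in male vehicle replicate 7, above 0.617 to 1.18 CPM in the other libraries of its group, and this is 1 of the libraries without which its call at 50 mg/kg was lost. Srxn1, a gene at low counts, stood at 0.603 CPM in female replicate 2 at 50 mg/kg, below 1.24 to 1.83 CPM, and at 6.95 CPM in female replicate 7 at 5 mg/kg, above 0.722 to 2.17 CPM. Hmox1 stood at 9.40 CPM in male vehicle replicate 1, below 19.1 to 39.6 CPM, and Txnrd1 at 294 CPM in male replicate 7 at 50 mg/kg, above 218 to 284 CPM.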

How the results depend on the processing

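Plain CPM turned the direction of 2 members between stomach and liver and 3 between duodenum and liver; no called member changed direction under any other alternative run. In duodenum at 50 mg/kg, the 2 members called became 0 within batch 1 or batch 2 alone, under a ribosomal protein covariate, and under 3 surrogate variables, and 1 with DESeq2, limma voom or no batch 3; leaving out each library gave 1 to 2. In males alone it gave 0 to 1, the 1 being Osgin1 (-0.47) without male replicate 6 at 50 mg/kg. For females against males in liver, the 4 members called at 50 mg/kg became 0 within batch 1, 1 within batch 2, 1 with only the groups compared and 2 without batch 3 (3 to 4 leaving out each library). The 4 at 5 mg/kg became 2 within either batch, and the 3 in vehicle livers became 1 within batch 1 and 5 with voom (2 to 4 leaving out each library). The sex difference in the effect of 5 mg/kg in liver gave 1 in place of 0 with DESeq2, voom, only the groups compared and no batch 3, and 0 to 1 leaving out each library. Stomach vehicle libraries gave 1 in place of 0 between sexes with voom. In liver 6 correlated pairs were called before and 1 after removal of means, 0 in both, and TMM-scaled CPM put 4 members in place of 1 highest in liver and 3 in place of 5 in duodenum. The cause of these changes was not tested. Shares of all genes called are given only for the main edgeR test, so a lost call need not be particular to the members. Within a tissue, same-numbered libraries of different groups did not deviate together (mean correlation -0.003 in liver, 0.034 in stomach and 0.018 in duodenum). In that order, 5 of 46, 7 of 48 and 6 of 47 libraries correlated best with their own number. The replicate block left 2 members called in duodenum at 50 mg/kg and 3 between the sexes in vehicle liver. Pairs across tissues were not part of this check. The labels do not say whether tissues share animals, and the joint fits treated all libraries as separate. Srxn1, and Slc7a11 outside stomach, rest on few counts, which limits what could be detected.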
